A study of Mus musculus with 4 samples.

Results

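Centrosome and centriole genes were followed in crypt epithelium of the mouse jejunum after loss of Yy1, which encodes a zinc finger transcription factor. The genes were taken by name from the array annotation. They comprised every gene whose symbol begins with Cep and a digit or with Tubgcp, together with Plk4, Sass6, Pcnt, Cdk5rap2, Cntrob, Ninl, Nin and Pcm1. This gave 50 genes of the 18193 measured, read by 109 probe sets, each a set of short array oligonucleotides designed against 1 transcript. The knockout group held 2 arrays of crypts from Yy1 f/f mice with Vil-Cre-ERT2, a tamoxifen-activated Cre recombinase driven in the intestinal epithelium by the Villin promoter, and these mice were given tamoxifen for 4 days. The control group held 2 arrays labelled only as control. The labels do not name its genotype. The treatment label with the 4 days of tamoxifen stands on the knockout and the control arrays alike, but its wording does not settle whether the control mice received tamoxifen or carried Cre, so Cre, tamoxifen and loss of Yy1 cannot be told apart here. All 4 arrays share the strain label C57BL/6J enriched, and the titles call the replicates biological. The labels used here name no age or sex.

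The centrosome organises the microtubules of animal cells. It is built around a pair of centrioles, short barrels of microtubules that are copied once in each cell cycle under the control of the kinase PLK4, and these are surrounded by pericentriolar material that holds the γ-tubulin ring complexes from which microtubules grow. Centriolar satellites are granules that carry proteins to the centrosome, appendages on the older centriole dock it to the membrane when a primary cilium forms, and a protein linker holds the centrosome's centrioles together until mitosis. In the crypts of the small intestine stem cells and their progeny divide, so duplication of centrioles is part of the cycle of these cells. The roles given below come mainly from work in human and mouse cells and are background to the measurements.

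Yy1 itself had intensities of 140 and 142 in the knockout arrays, against 1051 and 1006 in the control arrays, with the probe set used for the gene. The log2 difference was -2.74, and the other probe sets of Yy1 gave -4.31, -3.03 and -1.37, so Yy1 was lower with every one. Differences throughout are knockout minus control on log2(intensity + 16), given ± SE, with n = 2 arrays per group, and calls required an adjusted p below 0.05 in limma's moderated fit over all genes. Median intensities over all probe sets were 141 and 141 in the knockout arrays and 139 and 143 in the control arrays. Epithelial markers were bright on all arrays, with Epcam at 9077 and 9624 in knockout and 10119 and 10334 in control crypts. Of 10 markers chosen to check the crypt epithelium label, 3 were called lower (Olfm4, Cdx2 and Vil1) and 0 higher. Without the first knockout array or either control array 1 of the 10 was called lower. The log2 ratio of the 3′ to the 5′ probe set of Gapdh, a measure of RNA integrity and labelling, was 1.71 and 1.65 in knockout and 1.44 and 1.40 in control arrays. For Actb this ratio was 0.33 and 0.29 in knockout and 0.28 and 0.24 in control arrays. The groups did not overlap in either ratio. The part of these ratios in the results was not tested.

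The promoter windows of the genes show where letters bound by YY1 occur among them, and are given before the values because the factor is the one deleted. Windows from 250 bases before to 50 bases after the annotated start were taken from RefSeq (build GRCm38.p6) and existed for 42 of the 50 genes. The letters AANATGGCG, a core of the YY1 motif, were searched on both strands. They stood in the windows of 5 of the 42 genes (11.9%), against 4.27% of the 14367 measured genes with a window. The 5 were Cdk5rap2, Cep20, Cep250, Cep72 and Tubgcp3, and none of them was called between knockout and control. Of the 16 genes called higher that had a window, 0 held the letters, while over all measured genes the share was 4.71% of those called higher and 7.36% of those called lower. A match is a description of the sequence and not a binding site. Cdk5rap2, with 3 copies at positions -216, -105 and 8 from the start (chr4:70410386-70410685, minus strand), is shown with Cep250, with 1 copy at -100 (chr2:155956308-155956607, plus strand), and Tubgcp3, with 1 copy at -5 beside the start (chr8:12672051-12672350, minus strand). Capitals mark the letters, and positions have no 0.
Cdk5rap2: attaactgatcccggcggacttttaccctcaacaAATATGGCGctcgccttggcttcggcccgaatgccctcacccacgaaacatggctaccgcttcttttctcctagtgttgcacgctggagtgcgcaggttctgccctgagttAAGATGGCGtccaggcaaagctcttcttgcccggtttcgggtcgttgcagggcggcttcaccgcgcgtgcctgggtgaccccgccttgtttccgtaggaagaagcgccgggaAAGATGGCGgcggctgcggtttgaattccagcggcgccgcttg
Cep250: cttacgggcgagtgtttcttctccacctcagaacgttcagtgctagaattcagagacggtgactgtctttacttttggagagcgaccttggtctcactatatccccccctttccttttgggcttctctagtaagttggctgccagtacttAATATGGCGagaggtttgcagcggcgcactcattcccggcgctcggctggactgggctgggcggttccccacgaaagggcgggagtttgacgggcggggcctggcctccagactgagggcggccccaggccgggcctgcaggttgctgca
Tubgcp3: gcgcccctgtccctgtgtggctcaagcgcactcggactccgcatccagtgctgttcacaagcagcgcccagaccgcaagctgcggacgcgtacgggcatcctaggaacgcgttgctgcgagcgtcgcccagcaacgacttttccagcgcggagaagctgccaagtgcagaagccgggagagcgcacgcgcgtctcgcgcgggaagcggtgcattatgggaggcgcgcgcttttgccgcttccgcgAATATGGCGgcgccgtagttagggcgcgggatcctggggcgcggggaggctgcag

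A second short element, the cell cycle genes homology region with the letters TTTGAA, is found in promoters of many genes of late cell cycle. On either strand its letters stood in the windows of 12 of the 42 genes (28.6%), against 15.7% of the measured genes with a window. Among the 16 genes called higher with a window, 4 held them, namely Cep164, Cep295, Cep55 and Cep89, against 8 of the 25 members not called (32.0%) and 16.9% of all genes called higher. The letters TTTNGCGC of an E2F site, the factor family that acts at the start of DNA synthesis, stood in the window of 1 of the 42 genes (2.38%), against 2.33% of measured genes. One window of Cep55 is shown because this gene had one of the largest rises in the group. It holds the letters in the opposite orientation at position 25, just after this annotated start (chr19:38054734-38055033, plus strand). From a second annotated start (chr19:38054791-38055090, plus strand) the same letters lie at -33, so their side of the start depends on the start used. Capitals mark them.
Cep55: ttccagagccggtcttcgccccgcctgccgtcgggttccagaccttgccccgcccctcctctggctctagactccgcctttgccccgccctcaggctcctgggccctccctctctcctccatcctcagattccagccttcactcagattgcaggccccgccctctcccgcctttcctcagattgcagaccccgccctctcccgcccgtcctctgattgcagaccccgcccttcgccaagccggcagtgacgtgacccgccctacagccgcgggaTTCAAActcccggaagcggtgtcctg

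Of the 50 genes, 19 (38.0%) were called higher and 2 (4.00%) lower in knockout crypts. The 19 include Cep83os, a long noncoding RNA that entered the group by its symbol. Over all 18193 genes, 13.4% were called higher and 11.0% lower. Both knockout arrays lay above both control arrays for 29 of the 50 genes, against 32.7% of all genes, and below both for 6, against 29.3% of all genes. The median log2 difference of the 50 genes was 0.20, and that of all genes 0.01. At an unadjusted p under 0.05, 24 of the 50 differed, against 6445 of all 18193 genes. The rises were moderate, between 0.34 and 1.10 on the log2 scale, and 3 genes (Cep290, Cep55 and Cep83) reached a 2-fold rise. The share of calls varied with brightness, and most of the 50 genes lay in the middle of the range. When all genes were cut by mean level into 4 bins of equal size, 7 of the 17 members in the second bin from the dim end were called higher, against 6.90% of all genes there, and 9 of the 20 in the third bin, against 21.6%. In the brightest bin 2 of 7 were called higher, against 23.3% of all genes there, and in the dimmest 1 of 6, against 1.96%. The summed intensity over the 50 genes was 25582 and 24072 in knockout and 22536 and 22504 in control arrays.

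**Figure D1:**
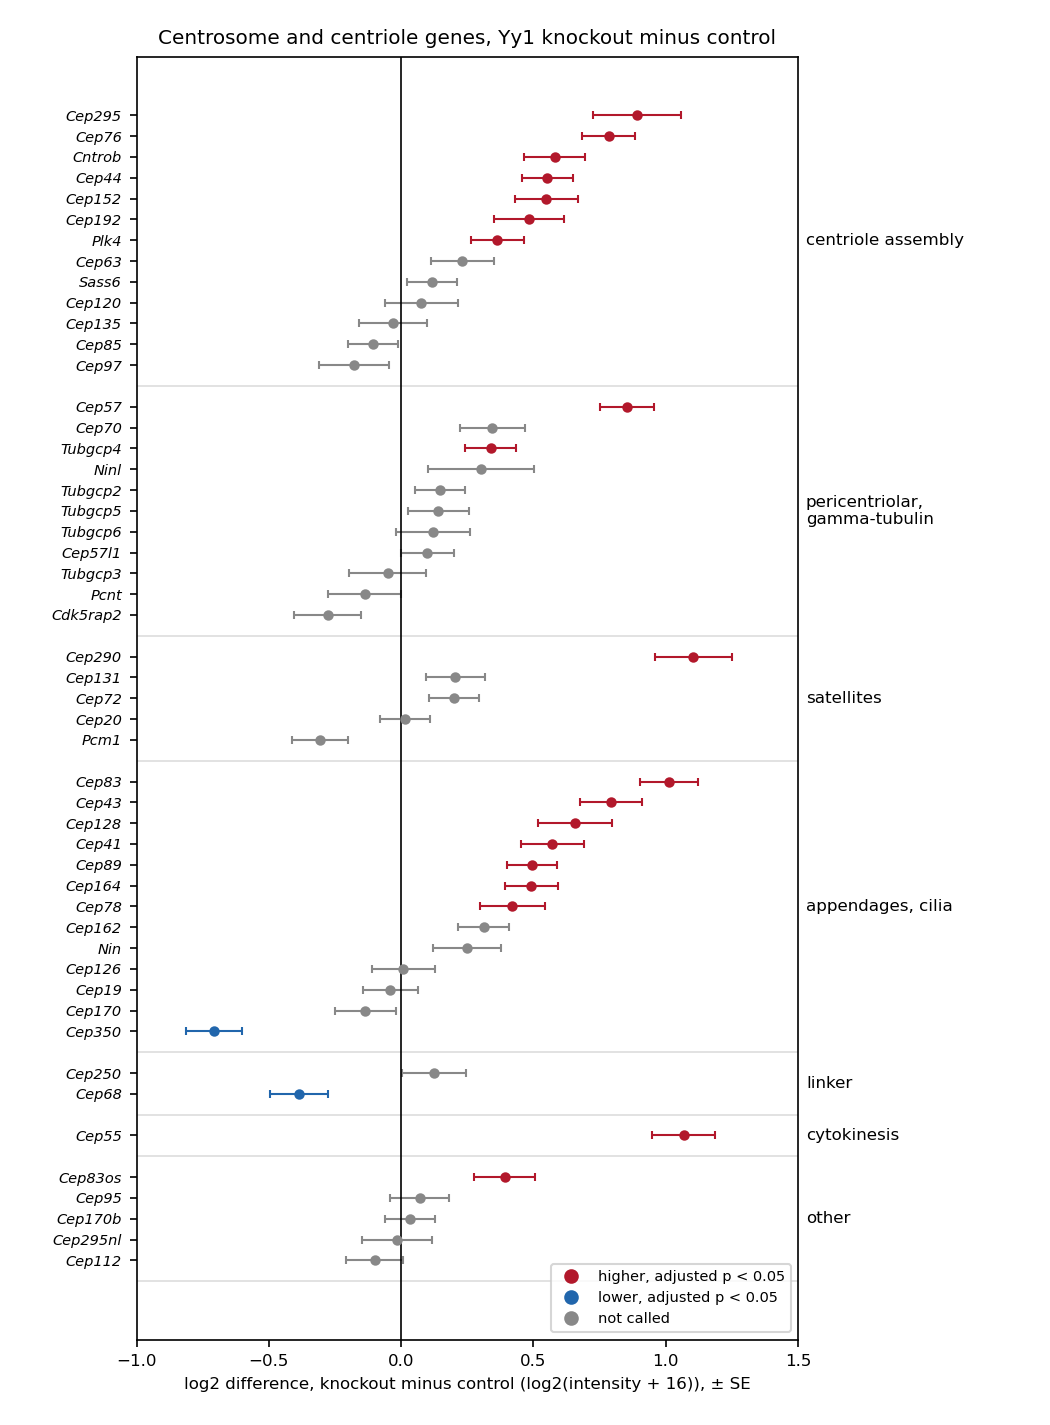
Log2 difference (knockout minus control, ± SE, n = 2 arrays per group) of each of the 50 genes, grouped by role. Red points were called higher (19), blue points lower (2) and grey points were not called (29). Most of the red points are in the groups for centriole assembly and for appendages and cilia, with 7 of 13 each (53.8%, against 13.4% of all genes).

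Genes of centriole assembly had 7 of 13 members (53.8%) higher and 0 lower, against 13.4% and 11.0% of all genes. Plk4, the kinase that starts centriole duplication, had intensities of 402 and 374 in knockout and 308 and 288 in control crypts. The groups did not overlap, and the gene rose by 0.36 ± 0.10 (adjusted p = 0.0375). Its partners that recruit PLK4 to the centriole moved the same way. Cep152 had 170 and 145 in knockout, against 95.4 and 110 in control crypts, and Cep192 had 632 and 498, against 383 and 411. Both knockout arrays lay above both controls for each, with differences of 0.55 ± 0.12 and 0.48 ± 0.13 (adjusted p = 0.0154 and 0.0366). Cep63, which binds CEP152, had 512 and 457 in knockout and 378 and 444 in control crypts, without overlap but not called (0.23, adjusted p = 0.218).

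Among the genes that act on the growing or maturing centriole, Cep295, needed in human cells for a new centriole to become a centrosome, had 281 and 201 in knockout and 132 and 110 in control crypts. It rose by 0.89 ± 0.17, with the first knockout array well above the second (adjusted p = 0.00901). Cep44, which acts in the same conversion in human cells, had 287 and 284 in knockout and 184 and 195 in control crypts (0.55 ± 0.10, adjusted p = 0.00695). The knockout arrays were here nearly equal and clear of both controls. Cep76, which restrains repeated duplication in human cells, had 248 and 274 in knockout and 148 and 142 in control crypts (0.78 ± 0.10, adjusted p = 0.00264). Cntrob, which encodes centrobin of the daughter centriole, had 438 and 424 in knockout and 310 and 258 in control crypts (0.58 ± 0.11, adjusted p = 0.0113). All 4 of these genes had both knockout arrays above both controls. For any called gene this adds little, as 32.7% of all genes lay above in this way.

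Not all assembly genes were called. Sass6, which encodes the protein of the cartwheel that gives the centriole its symmetry, had 239 and 245 in knockout and 223 and 221 in control crypts (0.12 ± 0.09, adjusted p = 0.438). The groups did not overlap, but the gap was small, and another probe set of Sass6 gave 275 and 237 in knockout and 147 and 166 in control crypts and was called higher (0.65). The result for Sass6 thus depends on the probe set. Cep135, Cep120, Cep85 and Cep97 gave differences of -0.03, 0.08, -0.11 and -0.18 and were not called.

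The pericentriolar material and the γ-tubulin complexes had 2 of 11 genes (18.2%) higher and 0 lower, against 13.4% and 11.0% of all genes. The share higher was near that over all genes, so the group as a whole did not stand out for rises. Cep57, which keeps centrioles engaged and helps to anchor the material, had 649 and 587 in knockout and 339 and 329 in control crypts. It rose by 0.85 ± 0.10 (adjusted p = 0.00204), with the groups far apart, and its other probe set was called higher as well (0.99). Tubgcp4, a subunit of the γ-tubulin ring complex, had 1000.1 and 1054 in knockout and 829 and 789 in control crypts. This was a small rise without overlap (0.34 ± 0.10, adjusted p = 0.0434), and both of its other probe sets were called higher (0.43 and 0.47).

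The other γ-tubulin complex genes were not called. Tubgcp2, a subunit of the small complex as well as the ring, had 208 and 200 in knockout and 184 and 180 in control crypts (0.15 ± 0.09, adjusted p = 0.325). Tubgcp3, its partner in the small complex, had 153 and 114 in knockout and 148 and 128 in control crypts (-0.05 ± 0.15, adjusted p = 0.853). Tubgcp3 overlapped between the groups, while Tubgcp2 did not. Tubgcp5, a ring complex subunit, had 185 and 180 in knockout and 181 and 149 in control crypts (0.14 ± 0.12, adjusted p = 0.451), and Tubgcp6, the largest of these subunits, had 78.8 and 65.3 in knockout and 74.4 and 56.0 in control crypts (0.12 ± 0.14, adjusted p = 0.606). Both of these overlapped, and Tubgcp6 was close to background.

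The large scaffolds of the pericentriolar material were not called. Pcnt, which encodes pericentrin, had 488 and 394 in knockout and 447 and 525 in control crypts (-0.14 ± 0.14, adjusted p = 0.536). Its groups overlapped. Cdk5rap2, which binds and activates γ-tubulin complexes and is the gene with 3 copies of the YY1 letters above, had 171 and 217 in knockout and 234 and 240 in control crypts (-0.28 ± 0.13, adjusted p = 0.17). Both knockout arrays were below both controls, and its other probe sets gave -0.27 and -0.32, without a call. Cep70, which binds γ-tubulin in human cells, had 676 and 580 in knockout and 528 and 454 in control crypts, without overlap and short of a call (0.34, adjusted p = 0.0884). Ninl, a relative of ninein, had 48.1 and 40.3 in knockout and 44.8 and 23.0 in control crypts (0.30 ± 0.20, adjusted p = 0.344) and was near background throughout.

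In the satellite group 1 of 5 genes (20%) was called higher and 0 lower, against 13.4% and 11.0% of all genes, so this small group did not stand out. Cep290, which is found in satellites and at the base of the cilium, had 124 and 91.0 in knockout and 37.9 and 44.1 in control crypts. Both knockout arrays were above both controls (1.10 ± 0.15, adjusted p = 0.00281). Its control intensities lay close to the background estimate of 31.9 to 35.6, the medians of the Bacillus control probe sets on the 4 arrays, so the size of the rise depends on the pseudocount. It was 1.36 with a pseudocount of 1 and 0.70 with 64, where Cep55 gave 0.97 and Cep83 0.90. Pcm1, the scaffold of the satellites, had 593 and 516 in knockout and 699 and 677 in control crypts (-0.31 ± 0.11, adjusted p = 0.0831). Both knockout arrays were below both controls, but the gene was not called. Cep131, Cep72 and Cep20 gave 0.21, 0.20 and 0.01 and were not called.

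Genes of appendages and cilia had 7 of 13 members (53.8%) higher and 1 (7.69%) lower, against 13.4% and 11.0% of all genes. The distal appendages dock the mother centriole to the membrane, and 3 of their genes rose. Cep83, at the root of the distal appendages, had 604 and 523 in knockout and 275 and 266 in control crypts (1.01 ± 0.11, adjusted p = 0.00152). Cep89 had 206 and 216 in knockout and 144 and 146 in control crypts (0.50 ± 0.10, adjusted p = 0.0102), and Cep164, which binds vesicles and recruits the kinase TTBK2, had 251 and 227, against 166 and 165 in control crypts (0.49 ± 0.10, adjusted p = 0.0125). The control arrays of all 3 genes were nearly equal and both knockout arrays stood above them. Cep128, which acts at the subdistal appendages, had 364 and 274 in knockout and 198 and 192 in control crypts (0.66 ± 0.14, adjusted p = 0.0148). Nin, which encodes ninein of the same appendages, had 206 and 176 in knockout and 143 and 174 in control crypts (0.25 ± 0.13, adjusted p = 0.222). The lower knockout array of Nin lay next to the higher control, and it was not called.

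Cep43 and Cep350 encode binding partners at the centriole and went in opposite directions. Cep43, also known as FOP, had 1559 and 1300.3 in knockout and 793 and 838 in control crypts and rose by 0.79 ± 0.12 (adjusted p = 0.0042). Cep350 had 977 and 1109 in knockout and 1739 and 1681 in control crypts and fell by 0.71 on the log2 scale (SE 0.11, adjusted p = 0.00426). The groups were far apart for both, and all 3 probe sets of Cep350 were called lower, with -0.71, -0.61 and -0.69. CEP19, a partner of this pair, had no called difference in its gene (1410 and 1350 in knockout, 1335 and 1508 in control crypts). Cep41, linked to glutamylation of ciliary tubulin, had 136 and 162 in knockout and 88.5 and 101 in control crypts (0.57 ± 0.12, adjusted p = 0.0136), and Cep78, mutated in human retinal disease, had 145 and 129 in knockout and 88.7 and 108 in control crypts (0.42 ± 0.12, adjusted p = 0.044). Cep162 fell just short of a call (401 and 423 in knockout, 329 and 328 in control crypts; 0.31, adjusted p = 0.0539).

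Cep55, needed for the last cut between dividing cells, is the only member whose best known role is in cytokinesis. It had 758 and 625 in knockout and 314 and 326 in control crypts. Each knockout array was clearly above both controls (1.07 ± 0.12, adjusted p = 0.00169), and its other probe set gave 1.03. In the linker that joins the centrioles, Cep68 had 543 and 468 in knockout and 673 and 653 in control crypts (-0.39 ± 0.11, adjusted p = 0.0418). Its partner Cep250, also called C-Nap1, had 160 and 147 in knockout and 126 and 154 in control crypts, overlapped and was not called (0.12). Cep83os is a long noncoding RNA annotated on the opposite strand beside Cep83. It had 431 and 359 in knockout and 298 and 294 in control crypts (0.39 ± 0.12, adjusted p = 0.0477). The RefSeq promoter windows of Cep83 and Cep83os share 276 bases, and both transcripts were higher.

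**Figure D2:**
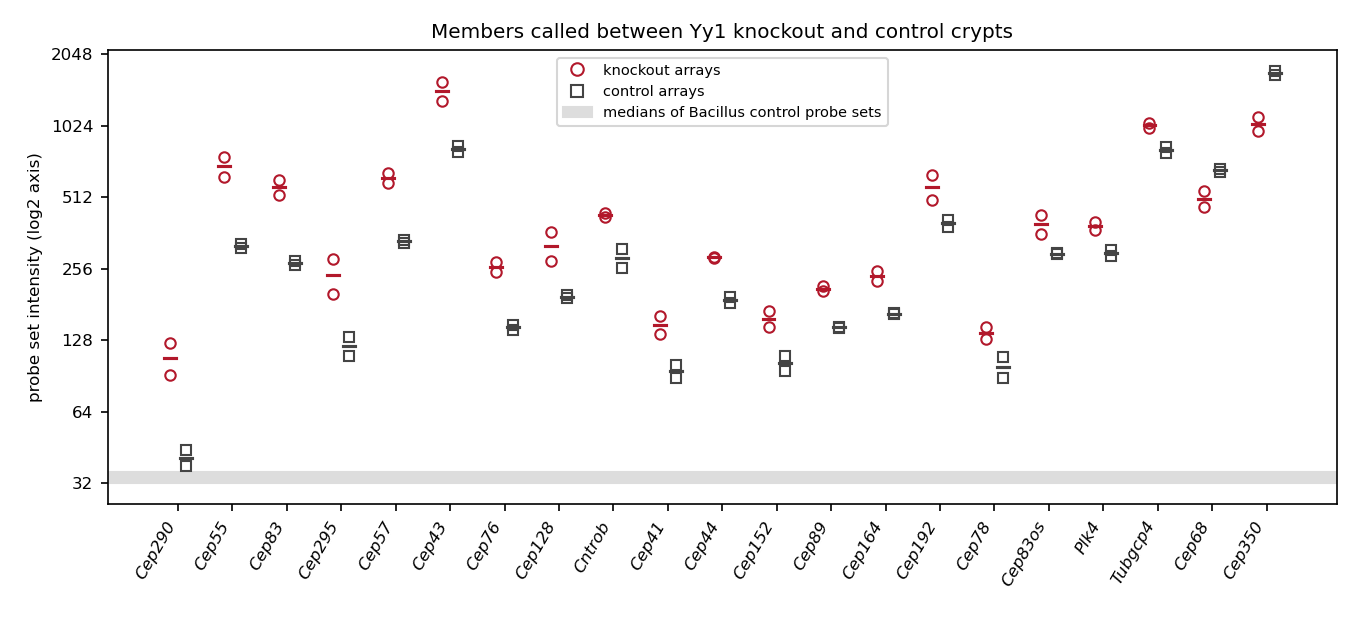
Intensity (log2 axis) of the 21 called genes on each array, with knockout arrays as red circles, control arrays as grey squares and bars at the group means. The shaded band spans the Bacillus medians (31.9 to 35.6). In all 21 genes the 2 groups do not overlap. This adds little, as these genes were chosen by their call, and 32.7% of all genes lay above and 29.3% below without overlap. In the controls only Cep290 comes near the band.

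The 29 genes without a call had differences between -0.31 and 0.34 and adjusted p between 0.0539 and 0.971. Of them 18 were positive and 11 negative. Without a call, 10 genes had both knockout arrays above both controls, 4 had both below, and 15 overlapped. Over all genes, called ones included, 32.7% lay above and 29.3% below in this way. The shares among all genes without a call were not counted, so no excess is read from these counts. In all, 4 of the 50 genes (Cep126, Cep72, Ninl and Tubgcp6) had a mean under 2 times the highest Bacillus median, so a difference in them would be hard to measure. Among the 19 genes called higher, the first knockout array was above the second in 15, and among the 29 without a call in 20. The tilt was thus not particular to the genes called higher, and its share over all genes was not counted.

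Several genes were read by more than 1 probe set, which gives a second view of each on the same arrays. Of 32 such genes, 24 had all probe sets on the same side of 0. Of the 21 called genes 16 had other probe sets, 10 of these had another called the same way and 0 had one called the opposite way. Of the called genes, Cep68 and Cep89 had probe sets on both sides of 0. Cep68 was lower with the probe set used (-0.39) but gave 0.44, 0.53, 0.01 and -0.14 with the others, of which none was called, so a fall of Cep68 rests on 1 probe set. Cep89 was higher with the probe set used (0.50), gave 0.28 with another and -0.29 with the last, neither of them called. The calls of Cep128, Cep41, Cep44 and Cep83os rest on 1 probe set as well. The others gave 0.01, 0.02 and 0.28 for Cep128, 0.10, 0.16 and 0.15 for Cep41, 0.27 and 0.09 for Cep44 and 0.20 for Cep83os, and none of them was called. Cep164 had 1 other probe set called higher (0.74) and 1 near 0 (0.03). With the probe set of lowest mean for each gene, 8 genes called higher kept the direction without the call. Among these were Cep128, Cep164, Cep192 (0.42, adjusted p = 0.0547 in limma), Cep41, Cep44 and Cep83os. Cep68 also kept its direction without the call, and Cep89 turned. Among genes not called, Cep95 gave 0.07, 0.16 and a called -0.55, and Tubgcp5 gave 0.14, 0.07 and a called -0.65. That probe set of Tubgcp5 lay between 21.8 and 50.6 on all arrays, near background. Cep112 (-0.10, 0.09 and -0.23), Cep170 (-0.13 and 0.36), Cep63 (0.23 and -0.01) and Cep126 (0.01 and -0.04) had no call with any probe set. Beyond Sass6, Cep95 and Tubgcp5, another 3 genes without a call had a called probe set, which was higher for Cep57l1 (0.81) and Cep162 (0.44) and lower for Cep97 (-0.63 and -0.79). Which transcripts the probe sets of a gene report on was not tested.

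**Figure D3:**
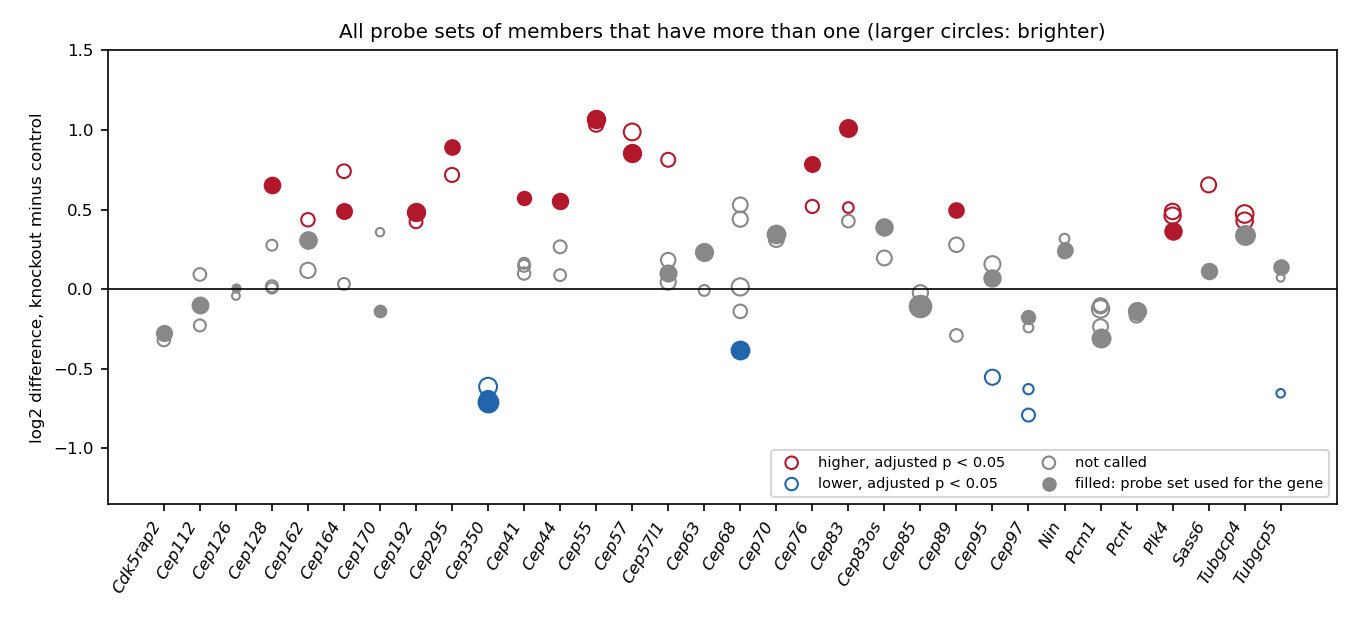
Log2 difference (knockout minus control) of every probe set of the 32 genes with several. Filled circles are the probe sets used for the gene, larger circles are brighter, and colours give calls adjusted over all probe sets. Under that adjustment Cep78, Cep83os and Tubgcp4 missed the threshold with the probe set used.

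Other genes of the same structures, listed by function and not among the 50, were read for comparison. The counts of these lists stand against 13.4% called higher and 11.0% called lower over all genes. Of 24 further genes of centriole assembly, 11 were higher and 1 lower, with a median of 0.32. Mdm1 (239 and 198 in knockout, 88.9 and 82.6 in control crypts), a centriolar protein, rose by 1.20, and Ccnf, Poc5 and Cetn2 rose by 0.92, 0.81 and 0.73, while Btrc fell by 0.64. Of 25 further genes of the pericentriolar material and spindle poles, 11 were higher and 1 lower, with a median of 0.22. Nedd1, which brings γ-tubulin complexes to the centrosome, had 294 and 238 in knockout and 123 and 114 in control crypts (1.06), Ofd1, Ssna1 and Aurka gave 1.01, 0.97 and 0.78, and Akap9, another large scaffold, was lower (-0.35). Akap9 was not called without any 1 of the 4 arrays, and Btrc was not called without the first control array. The further centriole assembly genes called higher numbered 7 without the second control array.

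Augmin, a complex that nucleates microtubules from the sides of others in the spindle, had 4 of 8 genes higher and 1 lower (median 0.40). Haus6 had 1352 and 1005 in knockout and 473 and 422 in control crypts (1.35 ± 0.15), and Haus3 had 837 and 809 in knockout and 355 and 361 in control crypts (1.16 ± 0.09). Both were far above the controls, Haus4 and Haus5 rose by less (0.55 and 0.60), and Haus7 was lower (-0.65). Without the first control array 2 of the 8 were higher, and without the second knockout array or either control array Haus7 was not called. Of 19 further satellite genes, 7 were higher and 2 lower (median 0.16). Tex9 had 59.1 and 78.4 in knockout and 372 and 421 in control crypts (-2.29), the largest difference among the centrosome and cilium lists, and Bbs4 was lower too (-0.49), while Ofd1, Ccdc77 and Sdccag8 were higher (1.01, 0.98 and 0.70). With either 1 of the control arrays left out, 4 satellite genes were higher and 1 lower. Of 20 further genes of appendages and linker, 4 (20%) were higher and 2 (10%) lower (median 0.06). These shares are near those over all genes (13.4% and 11.0%), so the list as a whole did not stand out. The genes called higher were Sclt1 of the distal appendages (584 and 561 in knockout, 222 and 211 in control crypts, 1.34), Nek2, Tchp and Ankrd26 (0.96, 0.59 and 0.39). Rab11fip3 (-1.16) and Ccdc120 (-0.40) were lower. Leaving out the first control array left 2 of these 20 higher, and 1 was lower without the first knockout array or either control array. Of 25 genes of intraflagellar transport, the traffic along the cilium, 7 were higher and 0 lower (median 0.16), among them Ift80, Ift172, Ift74 and Ift88 (1.27, 0.96, 0.82 and 0.70), and 4 were higher without the second control array. Markers of multiciliated cells, which make many centrioles, had 0 of 8 called, 0 of 8 at an unadjusted p under 0.05, and summed to 738 and 739 in knockout and 671 and 733 in control crypts. Foxj1, their defining transcription factor, was at 70.1 and 62.1 in knockout and 50.9 and 65.8 in control crypts.

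**Figure D4:**
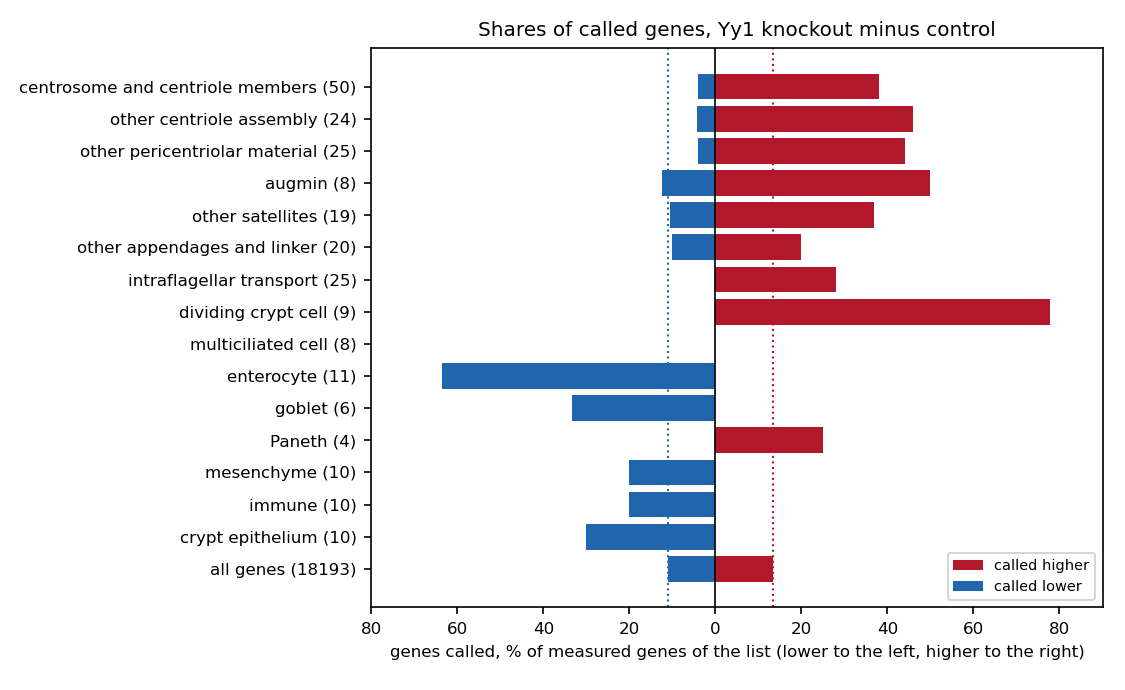
Share of measured genes called higher (red, to the right) and lower (blue, to the left) among the 50 genes and in each further list, with the number of genes in parentheses. Dotted lines mark the shares over all genes (13.4% and 11.0%). The dividing crypt cell list has the largest share higher (77.8%) and the enterocyte list the largest share lower (63.6%).

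Markers of dividing crypt cells and of enterocytes differed as well. Of 9 markers of dividing crypt cells, 7 were higher and 0 lower, and their summed intensity was 20849 and 20831 in knockout and 14966 and 15384 in control crypts. Cdk1 (0.97), Plk1 (0.92), Aurka (0.78) and Cenpa (0.96), genes of mitosis, were among them, while Mki67 (0.31) and Birc5 (0.15) were not called. Of 11 enterocyte markers 0 were higher and 7 lower, with sums of 44846 and 61985 in knockout and 82705 and 81533 in control crypts. In both knockout arrays 10 of the 11 were below both controls, against 29.3% of all genes. Lct, Mep1a, Slc2a2 and Alpi, which act in digestion and uptake, gave -3.06, -2.62, -2.32 and -1.69. With either 1 of the control arrays left out, 4 of the 11 were called lower. Of the other markers, 2 of 6 goblet genes (Clca1 and Fcgbp), 2 of 10 mesenchyme genes (Pdgfra and Des) and 2 of 10 immune genes (Cd3g and Ptprc) were lower and 0 higher, and 1 of 4 Paneth genes was higher (Mmp7, 0.42). Over all genes 11.0% were lower and 13.4% higher. Lists this short, with so few calls, do not show that these cell types changed. The calls of the goblet genes and of Mmp7 were lost without the first knockout array or either control array. Mesenchyme genes lower numbered 1 without the second knockout or the second control array, and immune genes lower numbered 1 without the first knockout array or either control array. In bulk RNA a larger share of dividing cells cannot be told apart from more of these transcripts in each cell. The part of the dividing and enterocyte markers in the results for the 50 genes was not tested.

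The calls differed in how firmly they stood when 1 array was left out. With 2 arrays per group, the number of arrays limits all results, and an exact permutation test of 1 gene could not go below p = 0.333. Members called higher numbered 12 without the first knockout array, 16 without the second, 9 without the first control array and 9 without the second, while all genes called higher numbered 1481, 2307, 1326 and 1157 in the same fits. Of the 21 calls, 7 (Cep290, Cep350, Cep43, Cep55, Cep57, Cep76 and Cep83) held under each alternative tried that could be fitted. Cep290 and Cep43 have 1 probe set each, so the alternatives of probe set could not change their differences. Cep68 lost its call without the second knockout array or either control array, and Plk4, Tubgcp4 and Cep78 lost theirs without any 1 of the 4 arrays. Cep164, Cep192 and Cep83os lost theirs without the first knockout array or either control, Cep152 without the first knockout or the first control array, Cep128 and Cep89 without either control, Cep41 and Cep44 without the first control, and Cep295 and Cntrob without the second control. Without the second knockout array, Cdk5rap2 was called lower (-0.44, adjusted p = 0.038), and without the first control array Ninl was called higher (0.62, adjusted p = 0.0411).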

How the data were processed

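The deposited values are linear intensities, 1 per probe set and array, on Affymetrix arrays hybridised by the maker's procedure per the labels. The authors' summary and normalization are not given in the sources used here. A floor of 1 was reached by 16 to 27 probe sets per array. Groups came from the sample titles. Of the 45101 probe sets, GEO's platform annotation gave 1 gene for 34958, with symbols updated through Entrez IDs (RefSeq, GRCm38.p6). The 932 that list several genes, those without a gene and the array controls were left out. Each gene took the probe set with the highest mean log2(intensity + 16) over the 4 arrays. limma 3.58.1 in R 4.3.3 (lmFit, eBayes, no block, 7.05 degrees of freedom) tested all 18193 genes with Benjamini-Hochberg adjustment, and was tested on simulated data. Fold changes on this scale understate dim genes. P-values and SE rest on the spread between these samples, after limma drew each gene's variance towards a value shared by all genes. They are thus not the spread of 1 gene alone. Named with values were Yy1, each called member, the members listed singly, all Tubgcp genes, members whose probe sets disagree in sign, and up to 4 called genes of each further list with the smallest unadjusted p; others, such as Cep63, Cep70, Cep19, Cep162 and some markers, were named after their values were seen. The members and lists were chosen with earlier results of these data known. Alternatives were the pseudocount, normalization, filter, prior, probe set, replicate block and each array left out. Some genes stand in more than 1 list.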

Additional observations from a re-analysis of the deposited data

How the results depend on the processing

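With 2 arrays per group, depth is not at issue, and the number of arrays and the signal over background limit the results, most for Cep126, Cep72, Ninl and Tubgcp6. Of 290 refits of the 21 called members, 232 kept the call, 57 kept the direction without the call and 1 turned (Cep89, -0.29 with its dimmest probe set). For called members with 1 probe set, the refits by probe set reuse the same values and test little. Leaving out 1 array at a time, where the lone array of a group is assumed to vary like the others, gave 9 to 16 members higher, 1 to 2 lower, and a median of 0.15 to 0.25. The counts over all genes were 1157 to 2307 higher and 1040 to 2059 lower. In the same fits, members without a call ran from -0.018 to 0.62 for Ninl, -0.29 to 0.0103 for Pcnt, -0.24 to 0.14 for Tubgcp3 and -0.043 to 0.29 for Tubgcp6. With a pseudocount of 1, 14 members were higher and 1 lower, with a median of 0.23, and with 64 the median was 0.14. With the probe set of lowest mean 13 were higher, with a median of 0.16. The counts of the further lists are small and moved too, with 7 to 12 of 24 centriole assembly genes, 2 to 5 of 8 augmin genes and 5 to 6 of 9 dividing cell markers higher when 1 array was left out, and 4 to 10 of 11 enterocyte and 1 to 4 of 10 crypt epithelium markers lower. With the dimmest probe set 7 pericentriolar genes and 4 dividing cell markers were higher. The replicate numbers are shared between groups, but the labels do not say that they pair mice, and deviations of samples with the same number correlated at 0.097 across genes. With the replicate block 20 members were higher and 2 lower, and 2662 and 2219 of all genes. The cause of these shifts was not tested.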
